A study of Mus musculus with 10 samples.

Results

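The Rhox genes are homeobox genes that lie in a row on the mouse X chromosome and are used in the testis, ovary and placenta. *Rhox5*, *Rhox6* and *Rhox9* were followed here on 10 Affymetrix mouse genome arrays, each through the only probe set whose annotation named that gene alone. The same annotation gave 1 further probe set that named Rhox genes only, that of *Rhox13*. These 3 probe sets and the 1 beside them were taken from 45037 probe sets in all. The RefSeq gene table lists 42 Rhox genes and pseudogenes, of which 33 code for protein, and the others were not analysed here.

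The arrays measured *Max*-null ESCs, male 129SV mouse embryonic stem cells in which both endogenous copies of *Max* were disrupted and a *Max* cDNA at the ROSA26 locus was placed under the tetracycline-off system. All 10 arrays carried this genotype, the untreated ones too, so that doxycycline (Dox) was meant to switch off the last source of MAX, the dimerization partner of MYC and MGA. In LIF+serum, 1 array each was made after 1, 2, 3, 4, 6 and 8 d of Dox, against 2 untreated arrays. The first untreated array was labelled as the reference of 1 to 4 d, and the second as that of 6 and 8 d. In 2i+LIF, where inhibitors of MEK and GSK3β are added, there was 1 array after 6 d of Dox and 1 untreated array kept in 2i for as long. The question was how the Dox response of germ cell-related genes depended on the culture medium.

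Each Dox time was 1 array, so single times had no test, and nothing says that the 2 untreated arrays came from separate cultures. A p-value here therefore measures the spread of the arrays around a fitted line, which may be technical. The values are robust multi-array analysis (RMA) values on the log2 scale, and a level of 1 probe set cannot be set against that of another. Array medians were 5.26 to 5.33 in LIF+serum, whereas those in 2i+LIF were 5.16 after Dox and 5.14 untreated. The actin control probe sets differed more between the 3′ and the 5′ end after 6 and 8 d of Dox in LIF+serum, by 1.46 and 1.22 on the log2 scale, than on the second and the first untreated array, by 0.88 and 0.41. The GAPDH control probe sets differed by 0.09 and 0.05 after 6 and 8 d, and by 0.12 and −0.03 on the second and the first untreated array. The pluripotency gene *Nanog* had values from 11.22 to 12.94 over the 10 arrays. The only probe set that named *Max* alone had 5.57, 5.53, 5.60, 5.07 and 5.20 in the first set (untreated, then 1 to 4 d) and 5.74, 6.20 and 6.19 in the second (untreated, then 6 and 8 d), and in 2i+LIF it had 5.54 after Dox and 5.74 untreated. It thus showed no steady decline with Dox, and since no source used here says whether its probes match the cDNA, it does not check the Dox labels.

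In mice the cluster is known as a target of DNA methylation. Its promoters are methylated as the cells of the embryo proper form, while extraembryonic tissues keep some of the genes active. *Rhox5*, first described as *Pem*, is the founding member and is switched on by androgen in the Sertoli cells of the testis. *Rhox6* and *Rhox9*, first described as *Psx1* and *Psx2*, are close relatives of each other that are active in the placenta and in germ cells. *Rhox13* is a gene of testicular germ cells.

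Promoter sequences of *Rhox6* and *Rhox9* were not available here, so they are not shown, and the promoter counts below leave them out. The stretches just before the annotated starts of *Rhox5* and *Rhox13* are shown. These genes had the steepest slopes of the 4 during Dox treatment, with opposite signs. Both come from RefSeq (GRCm38.p6, plus strand), chrX:37754358-37754607 for *Rhox5* and chrX:38120590-38120839 for *Rhox13*, and the capitals mark CpG, the dinucleotide at which DNA is methylated.
Rhox5: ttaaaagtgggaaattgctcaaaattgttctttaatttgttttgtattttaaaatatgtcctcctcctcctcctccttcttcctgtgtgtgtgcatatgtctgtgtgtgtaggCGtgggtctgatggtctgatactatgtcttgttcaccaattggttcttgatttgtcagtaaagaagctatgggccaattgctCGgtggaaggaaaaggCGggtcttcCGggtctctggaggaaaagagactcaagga
Rhox13: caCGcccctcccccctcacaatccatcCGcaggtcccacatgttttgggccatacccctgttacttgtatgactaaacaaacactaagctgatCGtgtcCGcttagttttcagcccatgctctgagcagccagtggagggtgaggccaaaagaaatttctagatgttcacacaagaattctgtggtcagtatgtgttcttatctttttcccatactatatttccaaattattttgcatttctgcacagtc
Each held 4 CpG in 250 bases. The 28 Rhox promoters matched in the table held 0 to 10 with a median of 4.5, against a median of 6 over all 32851 promoters of the table, whose quartiles were 2 and 16. The E-box CACGTG, the motif that MAX dimers bind, was in neither sequence on either strand, was in 5 of the 28 Rhox promoters, all of them copies of *Rhox4*, and was in 6.02% of all promoters. The motif GCGGGA, bound by E2F6 and its relatives, was in neither as well and in 16.9% of all promoters. The ETS motif CCGGAA was found once in that of *Rhox5* and not in that of *Rhox13*, and 12.0% of all promoters hold it. Each matched copy of *Rhox2* held it 2 times, so it was not particular to *Rhox5*.

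*Rhox13* rose in LIF+serum. Its log2 values in the first array set were 7.48 untreated, 7.71 after 1 d, 7.36 after 2 d, 9.52 after 3 d and 10.01 after 4 d of Dox. In the second set they were 6.74 untreated, 9.80 after 6 d and 10.56 after 8 d. The arrays of 1 and 2 d differed from their untreated array by 0.22 and −0.12, and those of 3 d and later lay above both untreated arrays, with the highest value at 8 d. The fold over the untreated array of the same set was 1.17 at 1 d, 0.918 at 2 d, 4.09 at 3 d, 5.77 at 4 d, 8.36 at 6 d and 14.2 at 8 d. Set against the first untreated array, the folds at 6 and 8 d were 4.98 and 8.45. The slope over the 8 arrays, with the array set as a covariate, was 0.53 ± 0.07 per day (log2, SE; 95% interval 0.38 to 0.69; adjusted p = 0.0038 from limma over all probe sets). Over all probe sets, 4.77% rose and 4.17% fell by this test, and *Rhox13* was the only one of the 4 Rhox probe sets to pass it. Without the second untreated array its slope was 0.64 with an adjusted p of 0.245 in limma, which then called 0 probe sets in either direction, where 3165 were higher and 2974 lower with p under 0.05 before adjustment. Within the first set alone the slope was 0.69 (adjusted p = 0.0349 in limma). Within the second set alone it was 0.49. That set holds only its untreated array and those of 6 and 8 d, too few to measure a spread around a line, so no p is given.

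**Figure D1:**
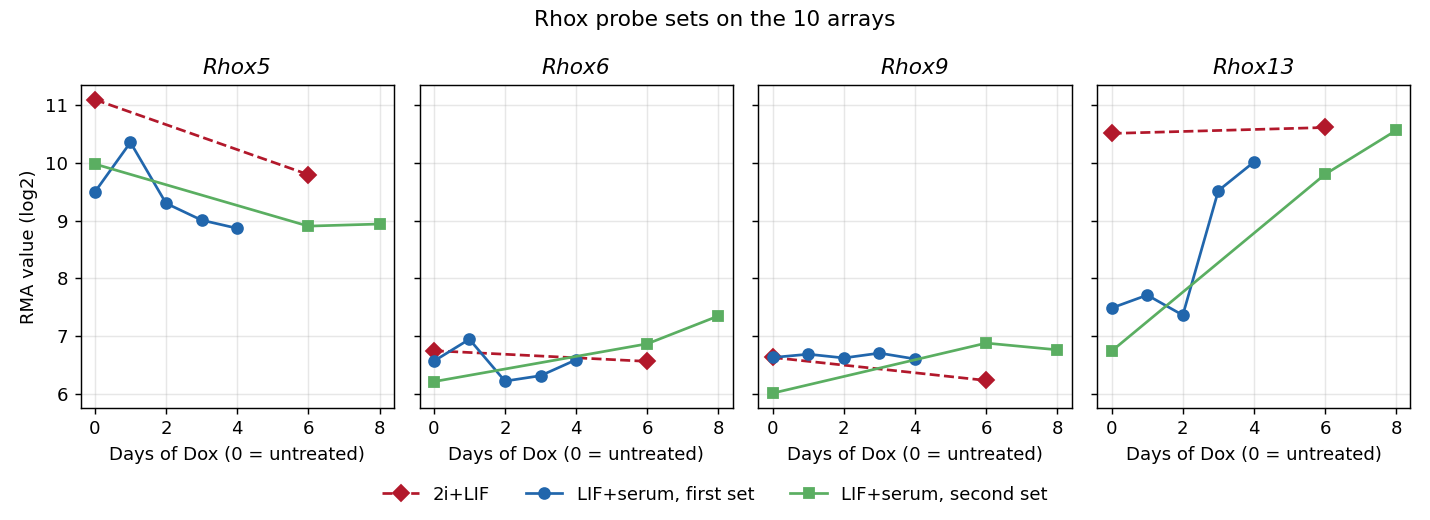
RMA values (log2, vertical axis) of the 4 Rhox probe sets on each of the 10 arrays against days of Dox (horizontal axis, 0 for untreated). Each point is 1 array, lines join arrays of 1 set, and diamonds with dashed lines are 2i+LIF. *Rhox13* in LIF+serum lies at 9.52 or above from 3 d on, where the untreated array in 2i+LIF stood at 10.51, while *Rhox5* in LIF+serum is lower at 3 d and later than on either untreated array.

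*Rhox5* had its highest value in LIF+serum at 1 d and lower ones afterwards. Its log2 values in the first set were 9.49 untreated, 10.35 after 1 d, 9.30 after 2 d, 9.01 after 3 d and 8.87 after 4 d. In the second set they were 9.98 untreated, 8.90 after 6 d and 8.94 after 8 d. The 5 arrays from 2 d on lay below both untreated arrays, and the array of 1 d lay above both. The fold over the untreated array of the set was 1.81 at 1 d, 0.873 at 2 d, 0.713 at 3 d, 0.647 at 4 d, 0.474 at 6 d and 0.486 at 8 d. The 2 untreated arrays differed 1.40-fold, and against the first of them the folds at 6 and 8 d were 0.664 and 0.681. The slope was −0.17 ± 0.05 per day (log2, SE; 95% interval −0.28 to −0.06), and its adjusted p of 0.0663 in limma did not pass the threshold of 0.05. It passed in 1 of 16 alternative settings, without the array of 1 d (−0.15, adjusted p = 0.0234 in limma).

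*Rhox6* had low amplitude and no steady course. Its log2 values were 6.56, 6.94, 6.22, 6.31 and 6.59 in the first set (untreated, then 1 to 4 d), and 6.21, 6.86 and 7.35 in the second (untreated, then 6 and 8 d). The 4 Dox arrays of the first set lay on both sides of their untreated array, whereas both Dox arrays of the second lay above theirs, by 1.57-fold at 6 d and 2.20-fold at 8 d. The array of 8 d was the highest of all 10. The slope was 0.09 ± 0.04 per day (log2, SE; 95% interval −0.01 to 0.19; adjusted p = 0.236 in limma). It was −0.06 per day in the first set alone and 0.13 in the second alone, and without the second untreated array it was −0.01, none of which passed the test.

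*Rhox9* hardly varied within the first set, with log2 values of 6.63, 6.68, 6.62, 6.70 and 6.60 (untreated, then 1 to 4 d). In the second set the values were 6.01 untreated, 6.88 after 6 d and 6.76 after 8 d. Its folds over the untreated array of the set were between 0.983 and 1.05 at 1 to 4 d, 1.82 at 6 d and 1.68 at 8 d. Here the second untreated array stood apart, at 0.652-fold the first, and against the first the folds at 6 and 8 d were 1.19 and 1.10. The slope was 0.08 ± 0.03 per day (log2, SE; 95% interval 0.01 to 0.15; adjusted p = 0.127 in limma), and it was −0.01 without the second untreated array. The higher values of *Rhox6* and *Rhox9* at 6 and 8 d fell on the arrays with the largest 3′ to 5′ difference of the actin controls. The GAPDH controls did not differ more there than on the second untreated array. The part of the actin difference in these *Rhox6* and *Rhox9* values was not tested. *Rhox6* and *Rhox9* are so alike that a probe set of the one may also read the other.

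The Dox response in 2i+LIF and that in LIF+serum lay furthest apart for *Rhox13*, although the difference did not pass the test. In 2i+LIF it had 10.61 after 6 d of Dox and 10.51 untreated (log2), a 1.07-fold difference, where LIF+serum gave 8.36-fold at the same time. *Rhox5* had 9.80 after Dox and 11.10 untreated, or 0.406-fold, which lay beside 0.474-fold in LIF+serum. *Rhox6* had 6.56 after Dox and 6.75 untreated (0.880-fold), and *Rhox9* had 6.23 and 6.63 (0.759-fold), so that both were below their untreated array in 2i+LIF and above it in LIF+serum, with 1 array behind each value. The fit takes the spread of the LIF+serum arrays for both media, since each condition in 2i+LIF was 1 array, so that no SE or p of a comparison of media covers the spread among cultures in 2i+LIF. The difference between the media in slope per day was −0.51 ± 0.13 for *Rhox13* (log2, SE; 95% interval −0.80 to −0.22), with an unadjusted p of 0.0027 and an adjusted p of 0.200 in limma, a fit across all probe sets. It was −0.05 ± 0.09 for *Rhox5* (95% interval −0.26 to 0.16), −0.12 ± 0.08 for *Rhox6* (−0.30 to 0.06) and −0.15 ± 0.06 for *Rhox9* (−0.27 to −0.02), with adjusted p of 0.919, 0.676 and 0.391 in limma. None of the 4 passed, and the background was 0% in either direction: limma called 0 probe sets, with p under 0.05 before adjustment for 2242 higher and 2399 lower, while limma's eBayes with trend and robust options called 9 higher and 16 lower. The difference for *Rhox13* passed only with the first array set left out (−0.47). That fit has hardly more arrays than fitted terms, so its p rests mostly on the spread that limma takes over from all probe sets.

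**Figure D2:**
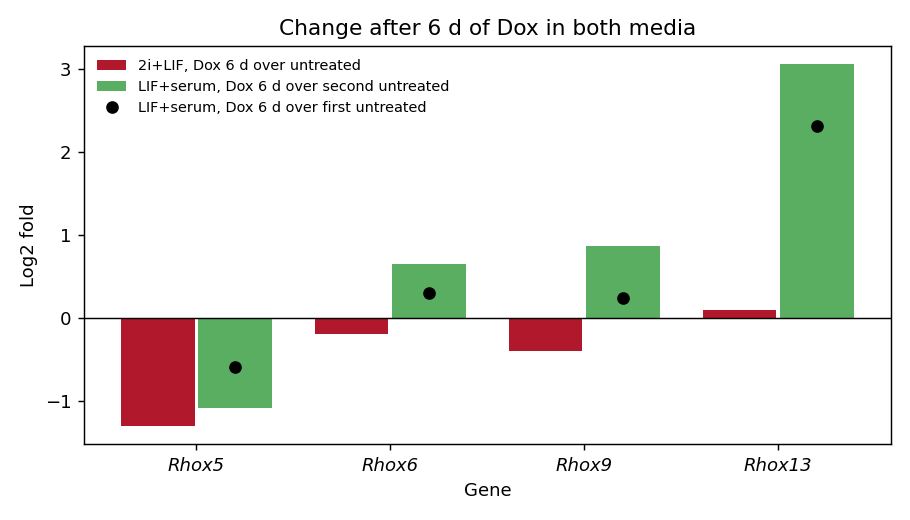
Change after 6 d of Dox (log2 fold, vertical axis) of the 4 Rhox probe sets, each bar being the difference of 1 Dox array and 1 untreated array. In each pair the left bar is 2i+LIF and the right bar LIF+serum over the second untreated array, and the dot takes the first untreated array instead. The bars of *Rhox13* stand for 1.07-fold in 2i+LIF and 8.36-fold in LIF+serum.

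The media differed in level before Dox as well. Untreated cells in 2i+LIF had a *Rhox13* value of 10.51, against 7.48 and 6.74 on the untreated arrays in LIF+serum, which is 8.14-fold the first and 13.6-fold the second. The fitted difference was 3.55 ± 0.54 (log2, SE; 95% interval 2.34 to 4.77; adjusted p = 0.0051 in limma), with adjusted p from 0.000438 to 0.0389 over 15 alternative settings. None of these could leave out a 2i+LIF array, and the spread behind them is that of the LIF+serum arrays, so they say nothing of the spread among cultures in 2i+LIF. Without Dox in 2i+LIF, *Rhox13* thus stood beside its level after 8 d of Dox in LIF+serum, 10.56. *Rhox5* had 11.10 in 2i+LIF, above 9.49 and 9.98 in LIF+serum (3.03-fold and 2.17-fold), with a fitted difference of 1.20 ± 0.39 (95% interval 0.32 to 2.07; adjusted p = 0.0736 in limma). This passed only without the array of 1 d (1.37, adjusted p = 0.0117 in limma). The fitted differences of *Rhox6* and *Rhox9* were 0.38 ± 0.34 (−0.38 to 1.15) and 0.30 ± 0.23 (−0.22 to 0.82), with adjusted p of 0.482 and 0.418 in limma. Only *Rhox13* of the 4 was called here, where 4.95% of all probe sets were higher and 7.24% lower in 2i+LIF. The median over all probe sets was −0.15 in this comparison, and after a further quantile normalization it was −0.03, with 1561 probe sets higher and 1263 lower in place of 2231 and 3259. The difference of *Rhox13* was then 3.35 (adjusted p = 0.00875 in limma). The 2i+LIF arrays form a set of their own, so medium and array set cannot be told apart. After 6 d of Dox in both media, the ratio of 2i+LIF to LIF+serum was 1.86 for *Rhox5*, 0.810 for *Rhox6*, 0.639 for *Rhox9* and 1.75 for *Rhox13*.

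The genes beside the cluster were looked at next. Only protein-coding genes with a probe set that named them alone were taken, the nearest on each side, and genes without one were passed over. The order in RefSeq places *Rpl39*, *Nkap*, *Akap14*, *Ndufa1*, *Rnf113a1* and *Gm9* before the Rhox genes and *Zbtb33*, *Tmem255a*, *Atp1b4*, *Lamp2*, *Cul4b* and *Mcts1* after them, 12 in all. Of these, 1 rose with Dox in LIF+serum and 0 fell, beside 4.77% and 4.17% over all probe sets, with a median slope of 0.01 per day against −0.01 over all. The one that rose was *Ndufa1*, which encodes a subunit of mitochondrial complex I (0.11 ± 0.03 per day, adjusted p = 0.0345 in limma). Its call was lost in 8 of 16 alternatives, among them leaving out the array of 1, 2, 3, 4 or 6 d or the second untreated array (highest adjusted p 0.259 in limma). The largest slopes that did not pass were those of *Rnf113a1*, −0.12 ± 0.04 (adjusted p = 0.0733 in limma, and 0.0105 without the array of 8 d), and of *Lamp2*, a lysosomal membrane protein gene, 0.12 ± 0.06 (adjusted p = 0.279, and 0.0272 within the first set alone). In untreated cells, *Gm9* alone of the 12 was called between the media, beside 4.95% higher and 7.24% lower over all probe sets. With so few genes this cannot be set apart from that background. *Gm9* was 1.00 ± 0.20 higher in 2i+LIF (log2, SE), with 1 array behind the 2i+LIF level and the spread of the LIF+serum arrays. Its call was lost without the second untreated array. Its untreated values in LIF+serum, 4.24 and 4.08, lay below the medians of their arrays.

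**Figure D3:**
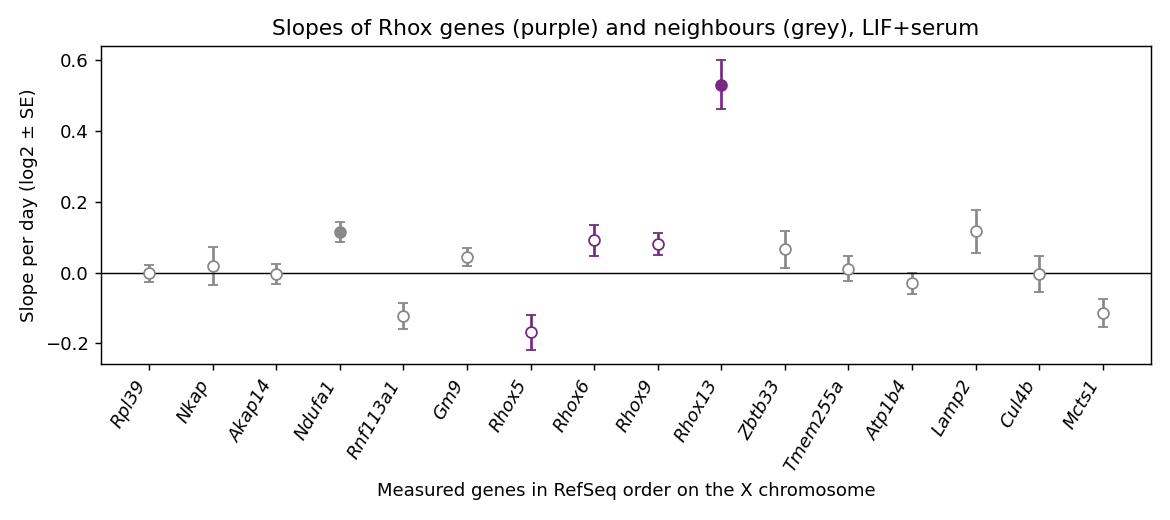
Slope per day of Dox in LIF+serum (log2, vertical axis) with its standard error for the 4 measured Rhox genes (purple) and the 12 measured neighbours (grey), ordered along the X chromosome as in RefSeq. Filled points passed the limma test. *Rhox13* lies at 0.53, whereas the neighbours lie between −0.12 and 0.12.

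Enzymes that set and keep DNA methylation were measured for 8 of 9 listed genes. With Dox in LIF+serum, 3 of the 8 fell and 0 rose, beside 4.17% and 4.77% over all probe sets, with a median slope of −0.03 per day. *Dnmt3b*, a de novo DNA methyltransferase gene, had 11.65, 11.07, 10.74, 10.57 and 10.61 in the first set (untreated, then 1 to 4 d) and 11.36, 9.59 and 9.67 in the second (untreated, then 6 and 8 d), so that every Dox array was below both untreated arrays. Its slope was −0.24 ± 0.03 per day (adjusted p = 0.0056 in limma). *Dnmt3l*, the cofactor of the de novo enzymes, fell by 0.18 per day (adjusted p = 0.0396), and *Uhrf1*, which brings DNMT1 to newly copied DNA, fell by 0.15 (adjusted p = 0.0098 in limma). The call of *Dnmt3l* was lost in 7 of 16 alternatives, in 6 of them by leaving out 1 array: either untreated array or that of 1, 3, 4 or 6 d (adjusted p up to 0.790). That of *Uhrf1*, whose untreated arrays had 10.98 and 12.05, was lost with no array set term and within the first set alone. It was also lost without the second untreated array (adjusted p = 0.274 in limma), where the calls of all other genes were lost too. *Tet2*, which oxidizes methylated cytosine, had a slope of 0.09 (adjusted p = 0.387 in limma), and 0.20 without the array of 8 d (adjusted p = 0.0272).

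Between the media, 3 of the 8 were called, all lower in 2i+LIF, beside 7.24% lower and 4.95% higher over all probe sets, again with 1 untreated array in 2i+LIF and the spread of the LIF+serum arrays. In untreated cells *Dnmt3a* was 2.87 ± 0.27 lower in 2i+LIF (log2, SE; adjusted p = 0.00053 in limma), *Dnmt3b* 1.41 ± 0.27 lower (0.013) and *Dnmt3l* 1.66 ± 0.35 lower (0.0183), the other 5 not passing. The calls of *Dnmt3b* and *Dnmt3l* were lost without the second untreated array, with adjusted p of 0.118 and 0.207 in limma. With 6 d of Dox in 2i+LIF, *Dnmt3l* had 11.97 against 9.70 untreated (4.82-fold), *Dnmt3b* 9.75 against 9.95 and *Dnmt3a* 6.12 against 5.86. Whether methylation of the Rhox promoters differed was not measured on these arrays.

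**Figure D4:**
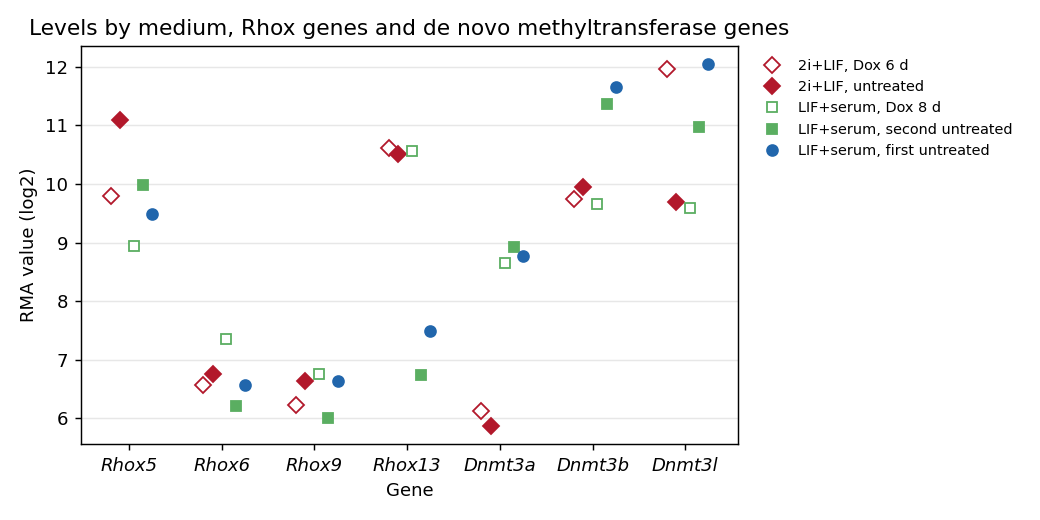
RMA values (log2, vertical axis) of the 4 Rhox genes and of 3 genes of de novo DNA methylation, by medium and Dox, 1 array per point, and open symbols for Dox. *Rhox13* was at 10.51 without Dox in 2i+LIF and at 7.48 and 6.74 without Dox in LIF+serum, and *Dnmt3a* at 5.86 and at 8.76 and 8.92 on the same arrays.

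Other factors that could act on the cluster were counted in the same way. Of 10 measured genes of H3K9 methylation and histone deacetylation, 1 fell and 0 rose in LIF+serum, which with so few genes cannot be set apart from the 4.17% that fell over all probe sets. It was *Ehmt2*, which encodes the H3K9 methyltransferase G9a (−0.25 ± 0.05 per day, adjusted p = 0.0176 in limma, 0.245 without the second untreated array and also not passing without the array of 4 d). Of 11 measured subunits of PRC1.6, the repressive complex that holds MAX and MGA, 1 fell and 0 rose beside the same background, namely *Tfdp1*, the E2F partner (−0.20 ± 0.03 per day, adjusted p = 0.0043 in limma). Of a list of transcription factor genes drawn up around *Rhox5*, 9 were measured: *Gata1*, *Gata4*, *Sox9*, *Wt1*, *Elf1*, *Sp1*, *Gabpa*, *Ets1* and *Ets2*. Besides factors of Sertoli cells, the list holds ETS factors and *Sp1*, which are not particular to those cells. The androgen receptor gene was not among the 9, so the count does not cover regulation by androgen. None passed in either direction, beside 4.77% that rose and 4.17% that fell over all probe sets, with a median slope of 0.05 per day. With so few genes this cannot be set apart from that background, and *Gata4* and *Sox9* lay below the array medians in LIF+serum.

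Germline genes that promoter methylation is known to silence were the list with the most calls. Of its 17 measured genes 12 rose in LIF+serum and 0 fell, beside 4.77% and 4.17% over all probe sets, with a median slope of 0.55 per day. The list holds genes for which the Dox response of these cells was already known, so it is no independent evidence. The largest slopes that passed were those of *Dazl*, an RNA-binding protein of germ cells (0.86, adjusted p = 0.0085 in limma), *Taf7l*, a germ cell TFIID subunit (0.83, 0.0125), *Tex101*, a surface protein of germ cells (0.78, 0.0093), *Tex15*, needed for meiotic recombination (0.75, 0.006), and *Slc25a31*, a testis ADP/ATP carrier (0.74, 0.0213). *Hormad1*, a protein of the meiotic chromosome axis, had a slope of 0.62 with an adjusted p of 0.0561 in limma, which was 0.0235 without the array of 8 d. *Slc25a31* lost its call without the array of 4 d too (adjusted p up to 0.315). The median fold of the 17 genes was 12.8 at 6 d in LIF+serum and 2.03 at 6 d in 2i+LIF. In untreated cells the median difference of the list was 0.79 (log2) higher in 2i+LIF, against −0.15 over all probe sets, and 1 of the 17 passed, beside 4.95% over all. *Dazl* had 10.10 in untreated 2i+LIF cells, against 5.79 and 6.87 in LIF+serum, and its fitted difference of 3.53 ± 1.13 did not pass (adjusted p = 0.0698 in limma), though it did in 4 of 15 alternatives, among them leaving out the array of 8 d (0.036). The one that passed was *Dpep3*, a testis dipeptidase gene, with 5.49 in untreated 2i+LIF cells, against 3.02 and 3.32 in LIF+serum (2.41 ± 0.26, SE; adjusted p = 0.001 in limma). It was 1.02-fold with Dox in 2i+LIF and had a slope of 0.18 ± 0.03 per day in LIF+serum (adjusted p = 0.011 in limma). Its untreated values in LIF+serum lay below the lower quartiles of their arrays, 4.02 and 3.88, and it was not shown to be above background there, so that the sizes of both differences are uncertain.

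Of 30 measured other paired-type homeobox genes, 2 rose and 0 fell in LIF+serum, a share near the 4.77% that rose over all probe sets, with a median slope of 0.01 per day. These were *Duxf3*, a gene of the early cleavage embryo (0.37 ± 0.08 per day, adjusted p = 0.0204 in limma, not passing without the array of 4 d), and *Shox2*, a limb and heart regulator (0.12 ± 0.02, adjusted p = 0.0205). The call of *Shox2* was lost in 5 of 15 alternatives, among them leaving out the array of 4 d and taking the mean of its probe sets (0.07 per day, adjusted p = 0.105 in limma), and its values in LIF+serum, 3.66 to 4.64, were not shown to be above background. *Crxos* had a slope of 0.26 ± 0.11 (adjusted p = 0.181 in limma). Between the media, 3 were higher in untreated 2i+LIF cells and 2 lower, beside 4.95% and 7.24% over all probe sets, with 1 array behind the 2i+LIF level. *Crxos* had 10.40 there, against 3.79 and 5.45 in LIF+serum, a fitted difference of 5.97 ± 0.87 (log2, SE; adjusted p = 0.0042 in limma). *Esx1*, an X-linked homeobox gene of the placenta and testis, was 0.93 ± 0.24 higher (0.0346) and *Shox2* 0.69 ± 0.20 higher (0.0471). *Pax6*, the eye and neural regulator, had 3.43 in untreated 2i+LIF cells, against 7.87 and 7.75 in LIF+serum (−4.54 ± 0.37, adjusted p = 0.00026 in limma). *Obox5*, an oocyte homeobox gene, had 3.52, against 5.19 and 4.82 (−1.63 ± 0.27, adjusted p = 0.0066 in limma). Both values in 2i+LIF lay below the lower quartile of that array, 3.60, so that the sizes of these differences are uncertain. The call of *Esx1* was lost without the array of 1, 3 or 6 d or the second untreated array, that of *Obox5* without the second untreated array, and that of *Shox2* in 12 of 14 alternatives.

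Since Rhox genes are active in extraembryonic cells, markers of other cell types were read beside them. Of 14 trophoblast markers 1 rose and 1 fell in LIF+serum, beside 4.77% and 4.17% over all probe sets: *Krt7*, a keratin, had a slope of 0.38 (adjusted p = 0.0133 in limma) and *Phlda2*, an imprinted growth regulator of the placenta, one of −0.48 (0.0045). After 8 d, 5 of the 14 lay above both untreated arrays, among them *Krt18*, *Krt8* and *Eomes* at 6.21-fold, 3.94-fold and 2.81-fold the second untreated array. The defining markers *Cdx2* and *Elf5* were at 0.946-fold and 0.846-fold. Against the first untreated array *Krt18*, *Krt8* and *Eomes* were at 3.74-fold, 3.35-fold and 2.56-fold, and *Cdx2* and *Elf5* at 0.838-fold and 0.447-fold. *Elf5* had 3.21 on the second untreated array and 2.97 at 8 d, below the lower quartile of 3.88 on both arrays. *Cdx2* lay below the medians of both untreated arrays and of the array of 8 d. The sizes of their folds are thus uncertain. The summed linear signal of the 14 was 1092 to 2369 on the Dox arrays and 2885 and 2505 on the untreated arrays. Without its brightest member, *Phlda2*, it was 579 to 2154, the highest at 8 d, and 858 and 673 on the untreated arrays. Such a sum, here and for the lists that follow, weighs each probe set by its own brightness. It therefore does not measure the amount of a cell type.

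Of 14 primitive endoderm markers 1 rose and 0 fell, beside 4.77% and 4.17% over all probe sets, from which so small a count cannot be set apart. The one that rose was *Pdgfra*, a receptor gene (0.32, adjusted p = 0.0026 in limma). Its untreated values in LIF+serum, 3.56 and 3.58, lay below the lower quartiles of their arrays, 4.02 and 3.88, so that the size of its slope is uncertain. After 8 d, 8 of the 14 lay above both untreated arrays, among them *Foxa2* (4.64-fold the second untreated array), *Gata6* (4.18-fold), *Col4a2* (3.32-fold), *Col4a1* (2.76-fold) and *Sparc* (2.26-fold), while *Gata4* was at 1.03-fold. Against the first untreated array these folds were 2.93, 2.18, 5.14, 5.27 and 2.03, with 0.884 for *Gata4*. The sum was 2107 to 3827 on the Dox arrays and 2702 and 2590 on the untreated arrays, and without *Lamb1*, the brightest, it was 1109 to 2948, the highest at 8 d, and 1598 and 1558 untreated. None of 8 fibroblast markers passed, beside the same background. After 8 d, 4 of them lay above both untreated arrays, among them *Col1a2* (3.28-fold the second and 2.58-fold the first) and *Col3a1* (3.33-fold and 1.97-fold). The untreated values of *Col3a1*, 3.60 and 2.84, lay below the lower quartiles of their arrays, so that the size of its folds is uncertain. The sum of the 8 markers was 1882 to 4852 after Dox and 1544 and 3304 untreated, most of it *Fn1*. Without *Fn1* it was 214 to 346, the highest at 8 d, and 258 and 259 untreated. The array of 8 d, on which these markers were high, was also the one with the highest *Rhox6* and the highest *Rhox13* in LIF+serum. Without it, the slope was 0.05 for *Rhox6* (adjusted p = 0.609 in limma) and 0.57 for *Rhox13* (adjusted p = 0.00526). Of 9 ES cell markers *Klf4* (0.24, adjusted p = 0.0069 in limma) and *Nanog* (0.11, 0.0433) rose and *Utf1* (−0.14, 0.0295) fell, beside the same background. The calls of *Nanog* and *Utf1* were lost in 10 and 8 of 16 alternatives, among them leaving out the array of 1, 3, 4 or 6 d. The part of other cells in the Rhox values was not tested, and in RNA of a whole culture more cells that use a gene and more RNA per cell cannot be told apart.

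The course over the arrays was compared among the Rhox genes and with all others, as a description with no test. Pearson's r of *Rhox5* with *Rhox13* was −0.79 over the 8 arrays in LIF+serum and −0.12 over all 10, and that of *Rhox6* with *Rhox9* was 0.57 and 0.54. Those of *Rhox13* with *Rhox6* and *Rhox9* were 0.59 and 0.64 in LIF+serum, where the points share the array set and the day of Dox. The search took 19774 probe sets with 1 symbol that reach 6 (log2) on some array, and a gene with several was ranked by the one most alike. The genes whose 10 values were most like those of *Rhox5* were *Pus7l* (r = 0.979, and at least 0.96 with any 1 array left out), *Tanc1* (0.933), *Pvr* (0.919), *Msn* (0.913) and *Chchd3* (0.912). For *Rhox6* they were *Rassf1* (0.903), *Azin2* (0.892), *Arf2* (0.879), *Morc4* (0.876) and *Aste1* (0.871), all least alike without the array of 8 d. For *Rhox9* they were *Ager* (0.854), *Atp6v1h* (0.834), *Fzd6* (0.829), *Abi1* (0.823) and *Zfp35* (0.822). For *Rhox13* they were *Rnf185* (0.971), *Gm11545* (0.964), *Tmem185a* (0.962), *Ndufb9* (0.961) and *8030474K03Rik* (0.957). No Rhox gene was among the 5 nearest of another, and of these 20 genes 4 lie on the X chromosome (*Msn*, *Morc4*, *Tmem185a* and *8030474K03Rik*), beside 3.16% of the 11547 genes searched whose symbol was matched to a chromosome.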

How the data were processed

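Transcripts of 10 samples of *Max*-null ESCs were measured on Affymetrix arrays. The authors applied RMA (background subtraction and normalization) in R and deposited log2 values. The sources used here give no version and do not say which arrays were normalized together. RMA shrinks differences among weak signals, so that folds of dim probe sets are likely too small. Of 45101 probe sets, 64 control ones were left out, and 34945 of the other 45037 had 1 symbol, 932 several and 9160 none. Symbols came from the platform annotation.

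Slopes and differences were fitted to all probe sets with limma 3.58.1 in R 4.3.3 by lmFit and eBayes. The array set was a covariate, with 5 residual and 4.81 prior degrees of freedom, and Benjamini-Hochberg adjustment at 0.05. The slope used the 8 arrays in LIF+serum, and the comparisons of media all 10. Folds are differences of log2 values turned into ratios.

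A gene of a list was read from its brightest probe set. Named were all Rhox probe sets, all 12 neighbours, up to 5 members of a list that passed the test of slope, up to 2 that did not, and the 5 genes most like each of *Rhox5*, *Rhox6* and *Rhox9*. Genes named between the media, markers named at 8 d, *Dpep3*, and those most like *Rhox13* were chosen after their values were seen. Members and lists were chosen with earlier results of these data known. Other scalings, filters, eBayes options, day scales and subsets of arrays were tried. Values were tabulated and drawn in Python 3.11.15 (numpy 2.4.6, pandas 2.3.3, scipy 1.17.1, matplotlib 3.10.9).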

Additional observations from a re-analysis of the deposited data

How the results depend on the processing

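Over all alternatives, values of the 4 Rhox slopes and differences kept direction and side of the threshold in 171 cases, turned direction in 9, newly passed in 3 and no longer passed in 1. Rhox folds stayed within the spread of the untreated arrays in 52 cases and moved in 24, all by taking the other untreated array. That spread was the standard deviation of the untreated arrays in LIF+serum. Taking the other array shifts a log2 fold by their whole difference, which always exceeds this standard deviation. The 24 moves thus follow from how the limit was set, and these counts do not measure how stable the folds are. Fits within 1 array set were chosen after seeing the data. The second set alone holds too few arrays to measure a spread around a line. Calls kept or lost there, which the totals of lost calls include, thus say nothing of a gene.

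For slopes in LIF+serum, averaging the probe sets of a gene gave 1038 higher and 1045 lower, the first array set alone 991 lower and the second alone 1159 lower. Leaving out 1 array gave 0 to 2739 higher and 0 to 2581 lower, and slopes of −0.21 to −0.15 for *Rhox5*, −0.0083 to 0.11 for *Rhox6* and −0.012 to 0.094 for *Rhox9*. The first set alone gave −0.058 for *Rhox6* and −0.0032 for *Rhox9*.

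For the difference of slopes, a log2(day + 1) scale gave 26 higher and 28 lower, trend and robust eBayes 9 and 16, gene means 10 and 10, the first set with the 2i arrays 337 and 809, and the second set with them 35 and 93. Leaving out 1 array gave 0 to 137 higher and 0 to 170 lower. With the first set, *Rhox5* was at 0.044 and *Rhox6* at 0.027.

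For untreated 2i+LIF against LIF+serum, a second quantile normalization gave 1263 lower, probe sets that reach 6 (log2) 1106 lower, gene means 1066 higher and 1462 lower, the first set 3751 and 5391 and the second 1447 and 1732. Leaving out 1 array gave 619 to 2687 higher and 488 to 3867 lower, and 0.97 to 1.37 for *Rhox5*, −0.11 to 0.50 for *Rhox6* and −0.16 to 0.35 for *Rhox9*. With the first set *Rhox9* was at −0.026. Why these values differ was not tested.

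The labels tie each untreated array to its Dox times, and the fits hold this array set as a covariate. No paired analysis was possible because, beyond that, each Dox time had 1 array and the labels carry no shared replicate numbers.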
